A study of Mus musculus with 12 samples.

Results

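Ribosome occupancy of 10 nucleoporin genes was followed in brain and spinal cord of mouse embryos with and without a severe deficit of the survival motor neuron protein (SMN). The genes, taken by their Ensembl identifiers, were Tpr (ENSMUSG00000006005), Nup153 (ENSMUSG00000021374), Ranbp2 (ENSMUSG00000003226), Nup98 (ENSMUSG00000063550), Nup107 (ENSMUSG00000052798), Nup133 (ENSMUSG00000039509), Nup160 (ENSMUSG00000051329), Nup155 (ENSMUSG00000022142), Nup205 (ENSMUSG00000038759) and Nup210 (ENSMUSG00000030091), and all 10 were present among the 10481 genes of the count table. Ribosome profiling sequences the short RNA fragments that ribosomes shield from nuclease, so that the count of a gene rises both with its mRNA and with the ribosomes on each mRNA. Control embryos carried 1 working copy of mouse Smn and the human SMN2 transgene (Smn+/-; SMN2tg/0), whereas SMA embryos of the same Taiwanese strain carried the transgene and no working copy (Smn-/-; SMN2tg/0). Both genotypes were collected at E14.5. SMN2 yields mostly a shortened SMN protein, and the controls were heterozygotes with the transgene and not wild-type embryos. Each of the 4 groups (control brain, SMA brain, control spinal cord, SMA spinal cord) held 3 libraries, called biological replicates by the labels. Whole tissue was used, so that fewer cells of a type and less RNA per cell cannot be told apart.

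Nuclear pores are large protein channels that span the nuclear envelope and carry all traffic of proteins and RNA between nucleus and cytoplasm. Y-shaped subcomplexes (Nup107, Nup133, Nup160) form the outer rings, an inner ring (Nup155, Nup205) lines the channel, membrane proteins (Nup210) anchor it, and flexible phenylalanine-glycine repeats (Nup98, Nup153, Ranbp2) form its barrier. Filaments of Ranbp2 reach into the cytoplasm, and a basket of Tpr and Nup153 faces the chromatin. Most vertebrate pores are built either after mitosis, when the envelope forms again, or during the growth of the nucleus in interphase, and members of the Y complex also sit at kinetochores in dividing cells.

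Promoters of the members are described here, and a link between them and the footprint levels was not tested. RefSeq gave 11 promoter windows of 300 bases for the 10 members (build GRCm38.p6, 250 bases before to 50 after the start). Windows are shown for 3 members, those that passed the thresholds of the genotype comparisons, with each CG dinucleotide in capitals. They lie at chr1:150392588-150392887 on the plus strand for Tpr, chr10:117792656-117792955 on the minus strand for Nup107 and chr2:90676965-90677264 on the plus strand for Nup160.
Tpr: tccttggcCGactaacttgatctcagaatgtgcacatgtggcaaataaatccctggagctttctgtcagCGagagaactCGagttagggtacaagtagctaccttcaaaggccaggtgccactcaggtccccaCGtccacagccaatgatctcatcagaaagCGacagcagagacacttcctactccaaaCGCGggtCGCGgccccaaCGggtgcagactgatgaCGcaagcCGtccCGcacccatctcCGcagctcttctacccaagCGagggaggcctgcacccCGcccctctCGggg
Nup107: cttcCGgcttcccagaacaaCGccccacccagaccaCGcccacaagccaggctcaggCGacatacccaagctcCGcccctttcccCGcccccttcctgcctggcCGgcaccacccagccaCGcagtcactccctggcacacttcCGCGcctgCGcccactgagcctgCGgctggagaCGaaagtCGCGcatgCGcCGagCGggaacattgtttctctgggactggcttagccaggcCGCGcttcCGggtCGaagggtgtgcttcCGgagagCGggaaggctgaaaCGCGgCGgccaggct
Nup160: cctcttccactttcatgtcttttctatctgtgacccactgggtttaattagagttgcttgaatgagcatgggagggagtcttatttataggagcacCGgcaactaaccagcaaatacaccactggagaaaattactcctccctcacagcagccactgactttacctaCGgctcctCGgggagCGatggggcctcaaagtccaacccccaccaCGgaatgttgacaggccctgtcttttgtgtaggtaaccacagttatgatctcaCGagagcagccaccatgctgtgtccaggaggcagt
The Nup107 window held 27 CG dinucleotides and that of Tpr 17, against 6 for Nup160, the lowest of the 11 windows. The median was 31 CG for the members, 7 for all 32851 mouse promoter windows and 21 for the 2152 windows of genes of the count table that have a name here. The ETS motif CCGGAAG, searched on both strands, occurred 3 times in the Nup107 window and in 2 of 10 members, against 8.86% of all windows and 17.6% of those of named genes. The letters TGACG, the core of the cAMP response element, occurred in 6 of 10 members, once in the Tpr window, against 20.8% of all and 30.9% of named windows. The full element TGACGTCA, which contains that core, was found in Nup133 alone, with 2 matches, and in 1.79% of all windows. None of the 7 motifs searched was found in the Nup160 window. These matches describe letters in a window and not sites of binding. By RefSeq the genes themselves span chr1:150392802-150449935 (Tpr), chr10:117750621-117792736 (Nup107), chr2:90677215-90739327 (Nup160), chr6:35177616-35247599 (Nup205) and chr8:123897114-123949265 (Nup133), and the other 5 members lie on chromosomes 6 (Nup210), 7 (Nup98), 10 (Ranbp2), 13 (Nup153) and 15 (Nup155).

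Depth ranged from 3683842 to 9117017 counts per brain library and from 5162190 to 12793955 per spinal cord library, of which members took 0.0652% to 0.145%. Hox genes, which mark the spinal cord and hindbrain, summed to 389 to 688 normalized CPM (CPM after TMM scaling over the 12 libraries, where CPM are counts relative to the scaled library total) in spinal cord and to 2.19 to 5.58 in brain, as the tissue labels say. Control spinal cord library 1 stood apart. Its summed level of Otx2 and Lhx2, transcription factors of the developing forebrain and midbrain, was 79.5 normalized CPM, against 9.90 to 36.2 in the other spinal cord libraries, with SMA library 1 next in order, and 244 to 284 in brain. Spinal cord differences between genotypes are therefore given with and without that library. The group of each library rests on its labels, as Smn1 was not analysed here. The labels call these embryos control or WT, and the genotype of controls given above is that stated by the study.

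All 10 members were well covered, with a mean of at least 20 counts in each tissue, and all 10 were longer than the median gene of 3020 bases, from 3850 bases for Nup107 to 12602 for Nup98. Levels were compared between genes per length, as normalized CPM per kilobase. Tpr had the highest mean density in all 4 groups, with 33.6 ± 0.709 for control and 31.7 ± 2.19 for SMA brain, and 24.6 ± 10.3 for control and 15.9 ± 0.942 for SMA spinal cord (SD, n = 3). Nup107 came next with 24.7 ± 2.91, 19.1 ± 2.22, 20.7 ± 9.15 and 15.1 ± 2.13 in the same order (SD, n = 3). Tpr lay above Nup107 without overlap in both brain groups, whereas their libraries overlapped in both spinal cord groups.

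At the lower end, Nup160 had 3.78 ± 0.347 in control brain, and Nup133 4.88 ± 0.457 (SD, n = 3), and no library of the one overlapped those of the other. Thus subunits of the same Y complex differed 6.53-fold in mean density, Nup107 being the highest and Nup160 the lowest. The inner ring genes lay between, Nup205 at 13.6 ± 1.86 and Nup155 at 9.24 ± 0.861 in control brain (SD, n = 3). Nup155, Ranbp2, Nup210 and Nup98 followed each other with overlapping libraries, and Nup153 overlapped Nup155. Of the 9 pairs of neighbors in the order, 4 overlapped in each brain group, 8 in spinal cord of controls and 7 in that of SMA embryos. The median density of all genes was 14.8 to 15.8, and 8 of 10 members lay below the median gene of this table in both brain groups and in spinal cord of controls, and 9 in that of SMA embryos. The authors had kept only genes with high counts per length in some libraries, so this median is that of well covered genes and not of the genome. Length here is that of all exons of a gene, and density over the coding part would differ. The Nup98 gene encodes a precursor that is cut into Nup98 and Nup96, and its footprints cover both.

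**Figure D1:**
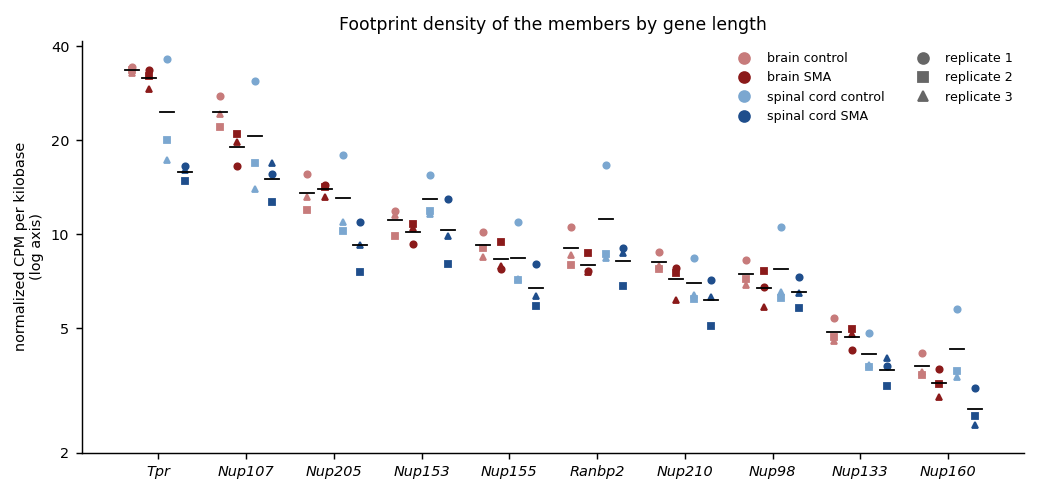
Footprint density of each member (normalized CPM per kilobase, log axis) in every library, with genes in the order of control brain, 1 color per group, 1 symbol per replicate number and a bar at each group mean (n = 3). Tpr and Nup107 are highest and Nup133 and Nup160 lowest in all groups, and control spinal cord library 1 (pale blue circles) lies above the other spinal cord libraries in every gene.

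Members varied together from library to library. The Pearson correlation of each member with the mean of the other 9, on standardized log2 normalized CPM over 12 libraries, was 0.67 for Nup153 to 0.96 for Nup155. Within the 6 spinal cord libraries it was 0.89 to 0.99, and within the 6 brain libraries 0.50 (Nup205) to 0.98 (Ranbp2). These are descriptions, and the points share tissue, depth and scaling. Control spinal cord library 1 had a mean standardized level of 1.76, against -1.61 to -0.21 in the other spinal cord libraries. No correlation was computed without it or for other sets of genes of like size. Control spinal cord library 1 was the highest of 6 for 10 of 10 members (27% of the 9919 genes that averaged 20 counts or more), and control brain library 1 was the highest brain library for 9 of 10, all except Tpr, when scaled within the tissue (18.2% of 9409 such genes). SMA spinal cord library 2 was the lowest for 9 of 10 members (24.9% of genes), and SMA brain library 3 for 5 of 10 (19.0%). The highest libraries were the deepest of their tissues and the lowest the shallowest, with 12793955 and 5162190 counts in spinal cord and 9117017 and 3683842 in brain. The part of depth in these levels was not tested.

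**Figure D2:**
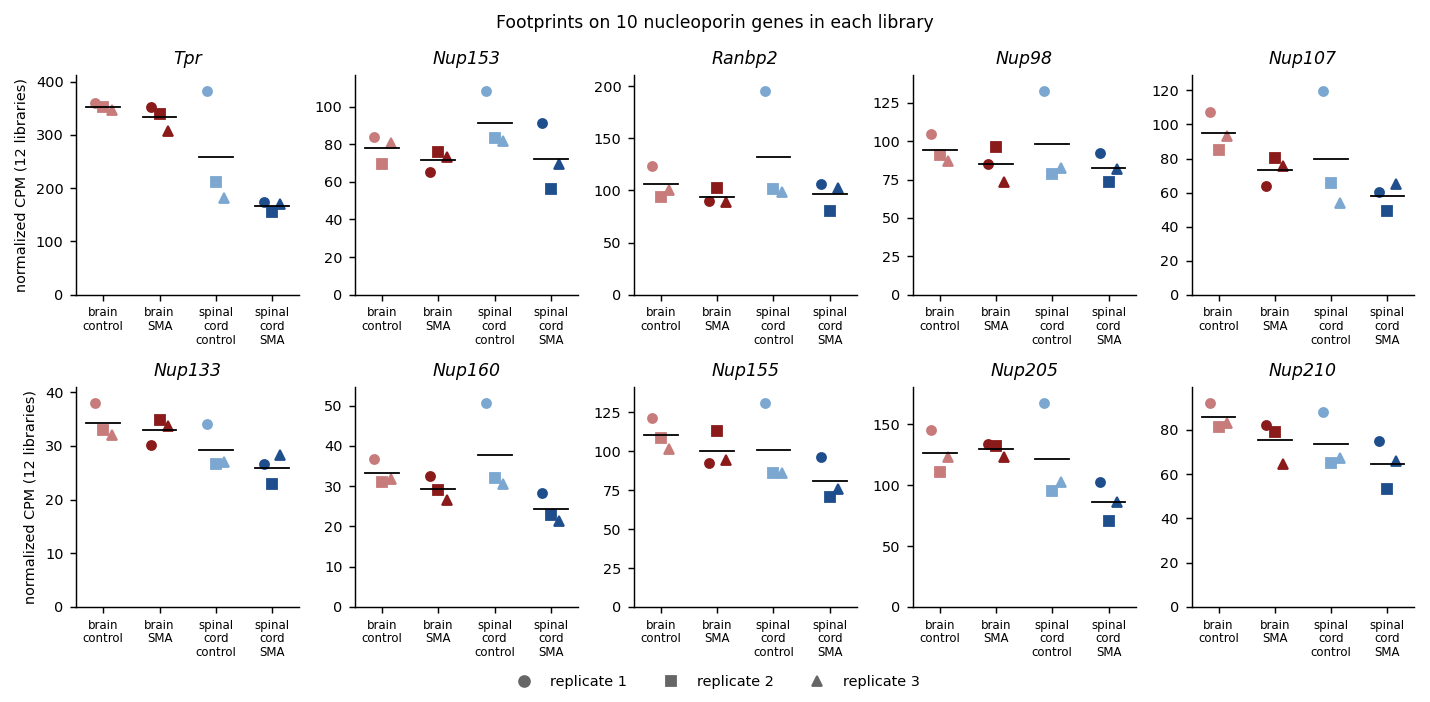
Normalized CPM (12-library scaling) of each member, 1 panel per gene with its own axis from 0, with a point per library, 1 symbol per replicate number and a bar at the mean of each group (n = 3). Control spinal cord library 1 is the highest spinal cord library in all 10 panels, and on this scale control brain library 1 is the highest brain library in all 10 as well.

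The first comparison asked which members changed ribosome occupancy in SMA brain. Nup107, a scaffold subunit of the Y complex, was the 1 member past the thresholds that the study set for its pathway analysis, an unadjusted p below 0.05 and a log2 fold change (log2FC, SMA over control) of 0.3 or more in size. Of all genes, 3.76% passed these thresholds (2.57% as lower). Nup107 had 104, 83.7 and 92.2 normalized CPM (scaled within brain) in control libraries 1 to 3 and 63.6, 79.7 and 74.9 in SMA libraries 1 to 3. Each SMA library lay below each control library, by a narrow gap between 83.7 and 79.7, as seen for 6.41% of the genes that averaged 20 counts or more. The log2FC was -0.36 with a standard error (SE) of 0.12 and an adjusted p of 0.902 from edgeR, and no gene of the table had an adjusted p below 0.05 in this tissue, where 529 genes had an unadjusted p below 0.05. Without control library 1 the value was -0.27, and without SMA library 1 also -0.27, and in either case Nup107 fell short of the thresholds, which 4.4% and 3.71% of genes then passed. In a single fit over the 12 libraries, where 2.89% of genes passed, it also fell short, with a value of -0.37 and a larger SE of 0.25.

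For the other 9 members, groups overlapped in brain. Tpr, the basket filament, had 349, 348 and 341 normalized CPM in control and 350, 335 and 303 in SMA libraries. Only SMA library 3 lay clearly below the rest, and the log2FC was -0.07 (SE 0.09). Nup160 had 35.4, 30.7 and 31.3 in control and 32.4, 28.8 and 26.2 in SMA libraries, with a log2FC of -0.17 (SE 0.14). Nup205 had 140, 110 and 121 in control libraries and 133, 131 and 121 in SMA libraries. It was the 1 member with a log2FC above 0, at 0.05 (SE 0.11), and the SMA values lay inside the control range.

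Nup153, Ranbp2, Nup98, Nup133, Nup155 and Nup210 had log2FC values between -0.17 (Nup210, SE 0.12) and -0.05 (Nup133, SE 0.13). For Nup210, a membrane anchor known from muscle and neural differentiation, control libraries spanned 80.2 to 88.9 and SMA libraries 63.9 to 81.6 normalized CPM. Ranbp2, which binds the GTPase Ran at the cytoplasmic face, spanned 92.4 to 119 in control and 88.1 to 102 in SMA libraries. Over the list, 9 of 10 values were below 0, against 49.1% of all genes, and the median was -0.13, against 0.00 for all genes. The median was -0.06 without control brain library 1, the library that was highest for 9 members.

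The next comparison asked the same of spinal cord. Tpr and Nup160 passed the thresholds as lower in SMA, 2 of 10 members where 4.19% of all genes passed (2.14% as lower). Both also passed at a log2FC of 0.5 in size, the threshold the study set for single genes, which 0.983% of genes passed. All 10 members had log2FC values below 0, against 51.1% of genes, with a median of -0.41, against -0.01 for all genes. No gene had an adjusted p below 0.05 by edgeR, with 733 at an unadjusted p below 0.05, and by DESeq2 57 genes had one, none of them a member.

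Tpr had 392, 215 and 184 normalized CPM (scaled within spinal cord) in control libraries 1 to 3 and 177, 158 and 170 in SMA libraries. The SMA libraries were close to each other and below all controls, while control library 1 lay far above the others. The log2FC was -0.65 (SE 0.27, adjusted p = 0.684 from edgeR), and -0.25 (SE 0.11) without control library 1. Nup160, a Y complex subunit, had 51.9, 32.6 and 31.0 in control and 28.6, 23.2 and 21.5 in SMA libraries. Here too each SMA library lay below each control library. The log2FC was -0.65 (SE 0.23, adjusted p = 0.684 from edgeR), and -0.38 (SE 0.16) without control library 1. Without that library neither passed, with unadjusted p-values of 0.055 and 0.0524 from edgeR, and Tpr was also short of 0.3 in size. The groups of both genes were still free of overlap. Fewer libraries are free of overlap more easily. The share of all genes free of overlap among them was not computed, so no conclusion is drawn from it.

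With all libraries of the tissue, groups that do not overlap with the SMA libraries lower were seen in 2 of 10 members. The share was 7.16% of the genes that averaged 20 counts or more. Nup205, the large inner ring scaffold, had 172, 97.2 and 104 in control and 104, 71.3 and 86.3 in SMA libraries, so that SMA library 1 reached the level of controls 2 and 3. Its log2FC was -0.51 (SE 0.24, adjusted p = 0.684 from edgeR), and -0.20 (SE 0.16) without control library 1. Nup107 had 123, 66.6 and 54.6 in control and 60.9, 49.6 and 65.3 in SMA libraries. Its groups were interleaved apart from control library 1, and the log2FC of -0.47 (SE 0.30) became -0.05 (SE 0.15) without it. The value of Ranbp2 shifted likewise, from -0.47 (SE 0.28) to -0.06 (SE 0.13).

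The remaining members had log2FC values between -0.34 (Nup153, SE 0.20) and -0.18 (Nup133, SE 0.15). Without control library 1 the values were -0.19 for Nup153, -0.09 for Nup155, -0.05 for Nup133 and -0.03 for Nup210. Nup153, the basket protein that also binds transport receptors, spanned 82.9 to 111 normalized CPM in control and 57.1 to 92.7 in SMA libraries. Nup155, an inner ring gene, spanned 87.1 to 134 in control and 71.3 to 97.6 in SMA libraries. Nup98, a mobile repeat protein of the barrier, spanned 80.2 to 136 in control and 74.4 to 93.7 in SMA libraries, and its log2FC of -0.26 (SE 0.22) was 0.03 without control library 1. Nup210 spanned 66.1 to 90.3 and 54.0 to 76.0, and Nup133 spanned 27.0 to 35.0 and 23.2 to 28.4.

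**Figure D3:**
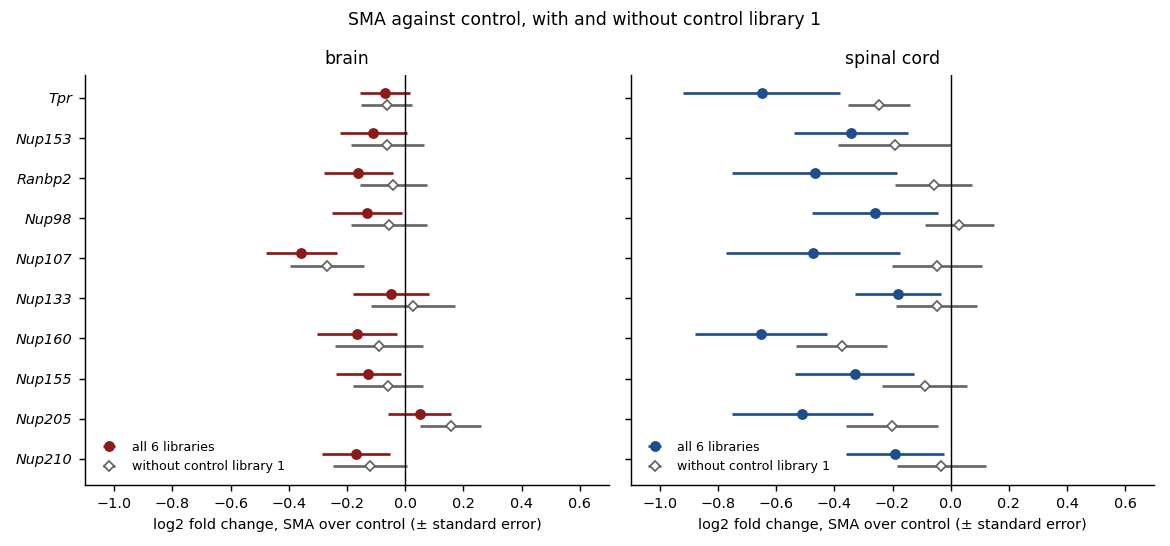
Log2FC of SMA over control for each member in brain (left) and spinal cord (right), with bars of 1 standard error, from all 6 libraries of the tissue (filled) and without control library 1 (open). In spinal cord all 10 filled points lie below 0, with a median of -0.41, and the open points have a median of -0.07. In brain the medians are -0.13 and -0.06.

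The size of the spinal cord values of the list depended most on control library 1, and the calls depended on other libraries as well. Control library 1 exceeded the mean of controls 2 and 3 by 1.29-fold (Nup133) to 2.03-fold (Nup107), with a median of 1.65 over the members and 0.991 over all genes. For 8 of 10 members, all except Nup133 and Nup210, it also lay above every brain library. Without it, 0 members passed by edgeR (2.2% of genes passed), 9 of 10 values were below 0 (48.9% of genes) and the median was -0.07. Without control library 2 (4.56% of genes), control library 3 (5.69%) or SMA library 1 (9.35%), 3 members passed, and without SMA library 2 (2.67%) or 3 (3.01%), 0 passed. In a single fit over the 12 libraries Nup205 passed beside Tpr and Nup160, where 5.51% of genes did. When control library 1 and SMA library 1 were both left out, the 2 spinal cord libraries with the most Otx2 and Lhx2, all 10 values were below 0, the median was -0.20 and 3 members passed, where 7.11% of genes passed. With a trend on gene length taken out of each library, Nup160 was the 1 member past the thresholds, where 3.47% of genes passed.

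Markers of cell types also varied between libraries. Names were at hand for 11 of 31 genes of proliferating cells, and their summed level was 590 normalized CPM in control spinal cord library 1, 180 to 272 in the other spinal cord libraries and 866 to 1077 in brain. In that library Top2a, the topoisomerase of dividing cells, had 165 normalized CPM against 21.9 to 41.3, when scaled within spinal cord. On the same scale Kif11, a spindle motor, had 35.5 against 5.51 to 10.3. In SMA spinal cord 11 of 11 of these genes had values below 0, with a median of -0.50, and 0 passed the thresholds. Without control library 1 the median was -0.12, with 10 of 11 below 0. In SMA brain 11 of 11 were below 0, with a median of -0.14, and 1 passed, Ncapg of the condensin complex (-0.62, SE 0.14). Neuronal genes (7 of 19 named) summed to 5091 normalized CPM in control spinal cord library 1, of which Map2 alone gave 2384, and to 6221 to 7582 in the others. In SMA spinal cord all 7 had values above 0 (median 0.20), where 51.1% of all genes were below 0. Mapt, Nsg2 and Rtn1 passed as higher, at 0.37, 0.34 and 0.37, where 4.19% of all genes passed in either direction. Without control library 1 all 7 stayed above 0 (median 0.11) and 0 passed. Neural progenitor genes (6 of 15) summed to 832 in that library and 887 to 1016 in the others, and 4 of 6 had values below 0 in SMA brain (median -0.05) and 2 of 6 in SMA spinal cord (median 0.15). Of these 6, Nes, an intermediate filament gene, passed as lower in both tissues (-0.33 in brain, -0.41 in spinal cord, and -0.40 without control library 1). Blood and liver genes (3 of 19) summed to 1.59 to 58.7 normalized CPM in control and 6.41 to 169 in SMA spinal cord, and all 3 had values above 0 in both tissues. Slc4a1, the anion exchanger of red cells, passed as higher in SMA spinal cord (2.08, SE 0.57, and 2.33 without control library 1), with 1.04 to 1.75 normalized CPM in control and 2.72 to 10.7 in SMA libraries. Apoa2, an apolipoprotein of the liver, passed as higher in SMA brain with 13 counts in SMA library 1 and 0 in the other 5. Col1a1, the 1 named gene of 16 for other cells, passed as lower in SMA brain (-0.95, SE 0.35) and had -0.73 (SE 0.61) in SMA spinal cord, or -1.06 (SE 0.59) without control library 1. Within brain the members summed highest in control library 1, at 1212.5 normalized CPM. Genes of proliferating cells summed to 997 there and to 1077 in control brain library 2. The part of cell makeup in the members' values was not tested.

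**Figure D4:**
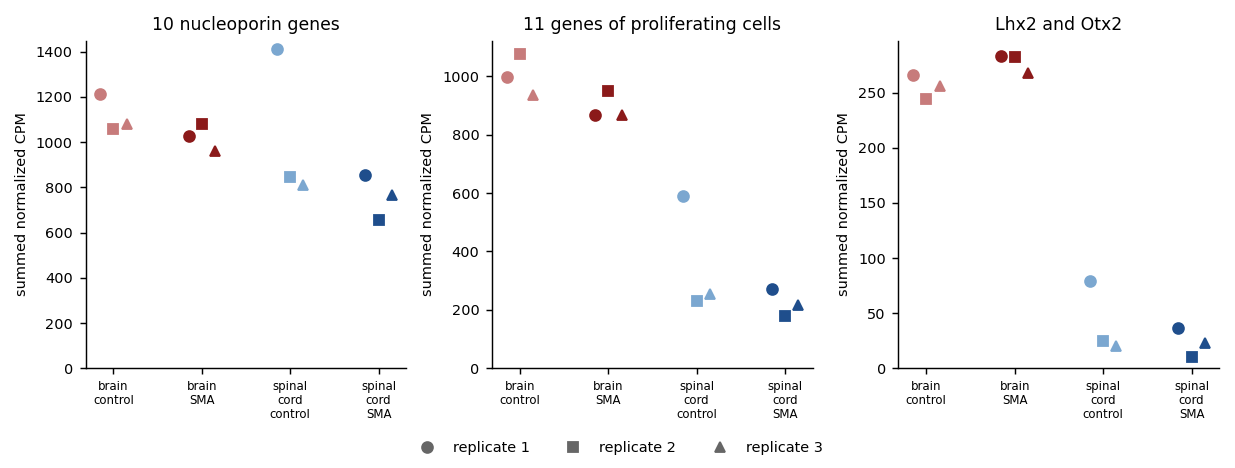
Summed normalized CPM (12-library scaling, axes from 0) of the 10 members, of 11 genes of proliferating cells and of Otx2 and Lhx2, with a point per library, 1 symbol per replicate number and 1 color per group. Control spinal cord library 1 is the highest spinal cord library in all 3 panels, at 1410, 590 and 79.5, and among all 12 libraries it is the highest for the members alone.

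A further comparison asked how members differ between the tissues. In SMA embryos Tpr and Nup205 were lower in spinal cord than in brain at an adjusted p below 0.05, 2 of 10 members, where 40.4% of all genes differed (19.3% as lower). Tpr had 352, 338 and 307 normalized CPM (12-library scaling) in SMA brain and 174, 155 and 169 in SMA spinal cord. No library came near the other tissue, and the log2 difference, spinal cord minus brain, was -0.998 (SE 0.21, adjusted p = 0.00302 from edgeR). Nup205 had 134, 132 and 123 in SMA brain and 102, 70.3 and 85.9 in SMA spinal cord. The tissues did not overlap, and the difference was -0.59 (SE 0.20, adjusted p = 0.0381 from edgeR). Nup133 did not overlap either, with a difference of -0.34 (SE 0.13, adjusted p = 0.0614 from edgeR). Thus 3 of 10 members lay lower in spinal cord without overlap, where 26.8% of genes did. Tpr kept an adjusted p below 0.05 with any 1 of the 6 libraries left out, whereas Nup205 kept it only without SMA spinal cord library 1.

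In control embryos 0 of 10 members differed between the tissues at an adjusted p below 0.05 by edgeR, where 41.1% of genes did. None had an unadjusted p below 0.05 by edgeR, where 5287 genes did. By DESeq2 0 members had an adjusted p below 0.05, where 4305 genes did, and 1 member had an unadjusted p below 0.05. Tpr had 361, 353 and 346 normalized CPM in control brain and 383, 211 and 182 in control spinal cord. Library 1 of the spinal cord lay above all of brain and the others far below, and the difference was -0.45 (SE 0.21, adjusted p = 0.101 from edgeR). Without that library 3 members differed, all of them lower in spinal cord, where 35.8% of genes differed in either direction. They were Tpr at -0.85 (SE 0.09, adjusted p = 4.9e-05 from edgeR), Nup107 at -0.68 (SE 0.15) and Nup133 at -0.37 (SE 0.13). Nup153 and Ranbp2, by contrast, had differences of 0.23 (SE 0.17) and 0.31 (SE 0.23) with all libraries, and 0.08 and -0.09 without it.

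Whether the genotype difference of the members was unlike in the tissues was tested as the interaction of tissue and genotype. By edgeR 0 of 10 members had an unadjusted p below 0.05, where 2.38% of genes did, and by DESeq2 1 had, Tpr, where 1.89% did. The lowest values, spinal cord effect minus brain effect, were -0.55 for Tpr (SE 0.30), -0.53 for Nup205 (SE 0.29) and -0.46 for Nup160 (SE 0.27), each with an adjusted p of 1 from edgeR. Without control spinal cord library 1 they were -0.15, -0.23 and -0.19. Without control spinal cord library 2 this p was reached by Tpr and Nup205 (2.72% of genes), without library 3 by Tpr and Nup160 (2.59%), and without SMA spinal cord library 1 by Nup205 (3.94%).

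Other genes of the pore and of nuclear transport were read from lists, as far as names were at hand. Of 21 other pore genes 3 could be followed, and 0 passed the genotype thresholds in either tissue. Their median was -0.17 in SMA brain and -0.29 in SMA spinal cord, and -0.12 there without control library 1. Nup50, a basket partner of Nup153, had 83.0, 85.0 and 87.6 normalized CPM (scaled within brain) in control brain and 71.5, 71.5 and 74.6 in SMA brain. Its groups did not overlap, and its log2FC was -0.23 (SE 0.10), short of 0.3. Nup214, of the cytoplasmic face, had -0.17 (SE 0.14) in brain, and in spinal cord Nup50 had -0.19 (SE 0.10) and Nup85 of the Y complex -0.29 (SE 0.17), or -0.12 and -0.21 without control library 1. Nup50 was also lower in spinal cord than in brain, by -0.81 in control embryos (SE 0.08, adjusted p = 2.98e-05 from edgeR), and by -0.87 without control spinal cord library 1.

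Of 32 genes of nuclear transport, the importins, exportins and the Ran cycle, 16 were named and none passed in brain or spinal cord, with medians of 0.00 in SMA brain and -0.11 in SMA spinal cord, or -0.03 without control library 1. In spinal cord the smallest p-values were those of Kpna2, an importin alpha of dividing cells (-0.31, SE 0.16), and Xpo7 (-0.21, SE 0.13), which had -0.11 and -0.06 without control library 1, and in brain those of Nutf2, which imports Ran (0.15, SE 0.10), and Kpnb1, importin beta (-0.09, SE 0.09). Between control tissues 7 of the 16 were lower and 2 higher in spinal cord at an adjusted p below 0.05, against 21.1% and 20.1% of genes, and 6 and 2 without control spinal cord library 1. Of 11 nuclear envelope genes 3 could be followed and 0 passed, with a median of 0.00 in brain and -0.26 in spinal cord, or 0.08 without control library 1. Lbr, the lamin B receptor, had -0.66 (SE 0.44) in spinal cord and -0.25 (SE 0.16) in brain, Tmpo had -0.26 (SE 0.13) in spinal cord, and Emd, emerin, 0.01 (SE 0.11) in brain. Without control library 1 the spinal cord values of Lbr and Tmpo were 0.08 and -0.10. Lbr had 85.8 normalized CPM (scaled within spinal cord) in control spinal cord library 1 and 25.2 to 33.2 in the others.

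The named genes most like the members across libraries were sought by Pearson correlation with their mean standardized log2 level over 12 libraries, among 1920 candidates with a mean of at least 20 counts. They were Xpo1 (0.93), the main exportin, Nup214 (0.90), Tbc1d31 (0.89), Tbc1d15 (0.89) and Taok1 (0.88). Within spinal cord their correlations were 0.94 to 0.98 and within brain 0.50 to 0.85, over 6 libraries each. None was computed without control spinal cord library 1. Xpo1 had 561 normalized CPM (12-library scaling) in control spinal cord library 1, 330 to 391 in the other spinal cord libraries and 384 to 432 in brain. As for 8 of 10 members, that library was the highest of all 12.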

How the data were processed

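Footprint counts of 12 libraries were taken from the table that the authors deposited. The authors trimmed reads with Cutadapt 4.1, removed rRNA and tRNA reads, aligned with STAR 2.5.3a (GRCm38.p6, several alignments per read allowed) and left out genes of low FPKM in all replicates of a condition. Deposited values are raw counts per gene and a gene length. The counting tool, and whether counts precede removal of reads at 1 position, are not given in the sources used here. Reads shared with similar genes cannot be separated.

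Counts were scaled by TMM and tested over all 10481 genes with edgeR 4.0.16 (glmQLFTest, R 4.3.3, Benjamini-Hochberg adjustment), within tissues for genotype and over 12 libraries in 4 groups for tissues and interaction. DESeq2 1.42.0 was an alternative. Code was tested on simulated counts. Replicates differed beyond sampling noise (chi-square per gene of 3.98 to 23.7). Deviations from group means were correlated between libraries of equal number. For SMA brain and SMA spinal cord the correlations were 0.114 to 0.345, against -0.28 to 0.20 for unlike numbers. For control brain and control spinal cord they were 0.0096 to 0.127, against -0.142 to 0.027. These values do not settle whether equal numbers mark paired libraries. A replicate block kept 2 calls between the SMA tissues and gave 1 between the control tissues. No litter is labelled, so p-values measure the spread between these samples. The table pairs no identifiers with names. Names came from the study's supplement, held in part, for 2005 genes. RefSeq promoters were matched by symbol for 10 of 10 members. All members are named; of the pore, transport and envelope lists those past the thresholds, else the 2 with the smallest p in each tissue, of the marker lists those past the thresholds and a few examples, and the 5 genes most alike. The members and lists were chosen with earlier results of these data known; the Hox and forebrain lists, and 2 alternatives (a trend on gene length, and both spinal cord libraries 1 left out), were added after seeing the data, and 1 gene of the forebrain list is not reported here.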

Additional observations from a re-analysis of the deposited data

How the results depend on the processing

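The medians of the members stayed below 0 under every alternative run in both tissues, from -0.18 to -0.06 in SMA brain and from -0.53 to -0.075 in SMA spinal cord with 1 library left out, the latter end without control spinal cord library 1. Members past the thresholds numbered 0 to 1 in brain and 0 to 3 in spinal cord with 1 library left out. In brain 0 passed in 1 fit over 12 libraries (3 in spinal cord), and 0 at 0.5, where 1.53% of genes did. With a length trend taken out 1 passed in spinal cord. DESeq2 kept 2 calls in spinal cord, with Nup205 (-0.51) in place of Tpr (-0.65). The share of all genes past the thresholds by DESeq2 is not given here, so this number has no background beside it. Same-numbered genotype libraries did not deviate together in brain (-0.14 to 0.02). In spinal cord the values were mixed, at 0.23, 0.70 and -0.45 for numbers 1 to 3, against -0.78 to 0.53 for unlike numbers. With a replicate block 5 members passed in spinal cord (Tpr, Nup153, Nup160, Nup155, Nup205; 7.1% of genes) and 1 in brain (4.0%), 1 member differed between control tissues (42.2%), 2 between SMA tissues (40.4%) and 2 in the interaction (2.42%). Members that differed between control tissues numbered 0 to 3 with 1 library left out, 1 with a trend on counts per base and 3 with a length trend taken out, and between SMA tissues 1 to 2, 1 by library size alone, 3 with a trend on counts per base and 4 with a length trend, where 30.8% to 41.7% of genes differed. The interaction had 0 to 2 with 1 library left out and 1 by DESeq2. Values near 0 changed sign. With 1 library left out, SMA brain values spanned -0.096 to 0.028 for Nup133 and -0.034 to 0.16 for Nup205, and SMA spinal cord values -0.40 to 0.030 for Nup98. Control tissue differences spanned -0.091 to 0.48 (Ranbp2), -0.23 to 0.19 (Nup98), -0.089 to 0.31 (Nup160) and -0.36 to 0.091 (Nup205), and SMA tissue differences -0.18 to 0.16 (Nup153), -0.044 to 0.14 (Ranbp2) and -0.13 to 0.058 (Nup98). With a trend on counts per base taken out, Nup133 had 0.012 in SMA brain, Nup98 -0.035 between control tissues, and Nup153 -0.087 and Ranbp2 -0.066 between SMA tissues. With a length trend taken out these were -0.10 for Nup98, -0.069 for Nup153 and -0.062 for Ranbp2. Nup205 had 0.0012 between control tissues by library size alone, and Nup153 -0.0057 between SMA tissues with the block. The causes were not tested. The biological coefficient of variation was 0.108 in brain and 0.220 in spinal cord, which limits what 3 libraries a group can show.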
